A study of Danio rerio with 8 samples.

Results

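The genes described here encode ion channels, ion pumps and proteins that move or sense calcium in zebrafish heart ventricle. They were chosen by name: a probe set (the group of array probes that stands for a transcript) belonged when the platform annotation gave it exactly 1 gene symbol and that symbol began with 1 of a set of letter patterns, such as kcn, scn, cacn, atp1a, atp2a, camk or calm. The rule uses no measured value. It gave 76 probe sets of 59 genes, out of 15502 probe sets tested. The pattern also caught trpc4apa, trpc4apb, itprip and itprid2, which encode proteins that bind a channel rather than channels; they are kept and described apart. Ryanodine receptors, inositol trisphosphate receptors, inward rectifier potassium channels and slc8a1a are not analysed here.

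Transcript levels came from Affymetrix zebrafish arrays hybridised with 8 samples of Danio rerio ventricle, 4 labelled control and 4 labelled resected, with 0 deposited columns left unused. A sample was 1 pool of 50 ventricles, taken 2 weeks after surgery in both groups. The labels give neither strain, genotype nor age, and do not say what was done to control animals. The series calls the samples biological replicates. Values are on the log2 scale of RMA (robust multi-array average), so that 1 unit is a 2-fold difference. A change is what is left when the mean of the 4 control arrays is taken from that of the 4 resected ones; ± gives its standard error (SE) from limma. The number of arrays limits the precision. Control replicate 2 stood apart from the other controls in leukocyte markers, at a mean of 8.61 beside 7.61 to 7.95, and calls that end or appear without it are given both ways.

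A heartbeat begins when sodium and calcium channels open in the muscle cell membrane and ends when potassium channels restore its voltage. Calcium that enters makes the sarcoplasmic reticulum (SR), the internal calcium store, release more, and the muscle shortens. SERCA pumps (atp2a genes) return calcium to the SR under the brake of phospholamban, while plasma membrane pumps and sodium-calcium exchangers export it. The sodium potassium pump keeps up the gradients that all of these use. Calmodulin senses calcium and switches on the kinase CaMKII, which phosphorylates phospholamban and several channels. In zebrafish the ventricle regrows lost muscle after its tip is removed.

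Most of these genes did not pass the test. Of the 76 probe sets, 2 were higher and 5 lower in resected ventricles at an adjusted p under 0.05 (limma, Benjamini-Hochberg over all probe sets tested). Over all 15502 probe sets 4.28% were higher and 2.57% lower, so the higher calls were 2.63% of the members beside 4.28%, and the lower calls 6.58% beside 2.57%. Either way, 9.21% of the members were called, beside 6.85% of all probe sets. Groups without overlap (all 4 values of 1 above all 4 of the other) were found for 10 of the 76, or 13.2%, beside 14.3%. The median change of the members was -0.07, beside -0.05 over all probe sets. The 7 calls lay in camk2d2 (both of its probe sets), pln2, atp1a3b and clcnk, which fell, and in calm3b and camk2d1, which rose. These counts moved when 1 array was taken away. Lower probe sets numbered 2 when it was control replicate 1, resected replicate 1 or resected replicate 3, 3 when it was control replicate 4 or resected replicate 2, and 4 when it was 1 of the other 3, control replicate 2 among them. Higher ones numbered 3 when it was control replicate 2, and 1 when it was control replicate 3, control replicate 4 or any of resected replicates 1 to 3. The share of all probe sets called moved as well, from 3.52% without resected replicate 2 to 10.4% without control replicate 2. For the 69 probe sets not called, the 95% confidence interval lay within 0.5 log2 units of 0 on both sides for 50 and within 1 unit, a 2-fold change, for 64.

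**Figure D1:**
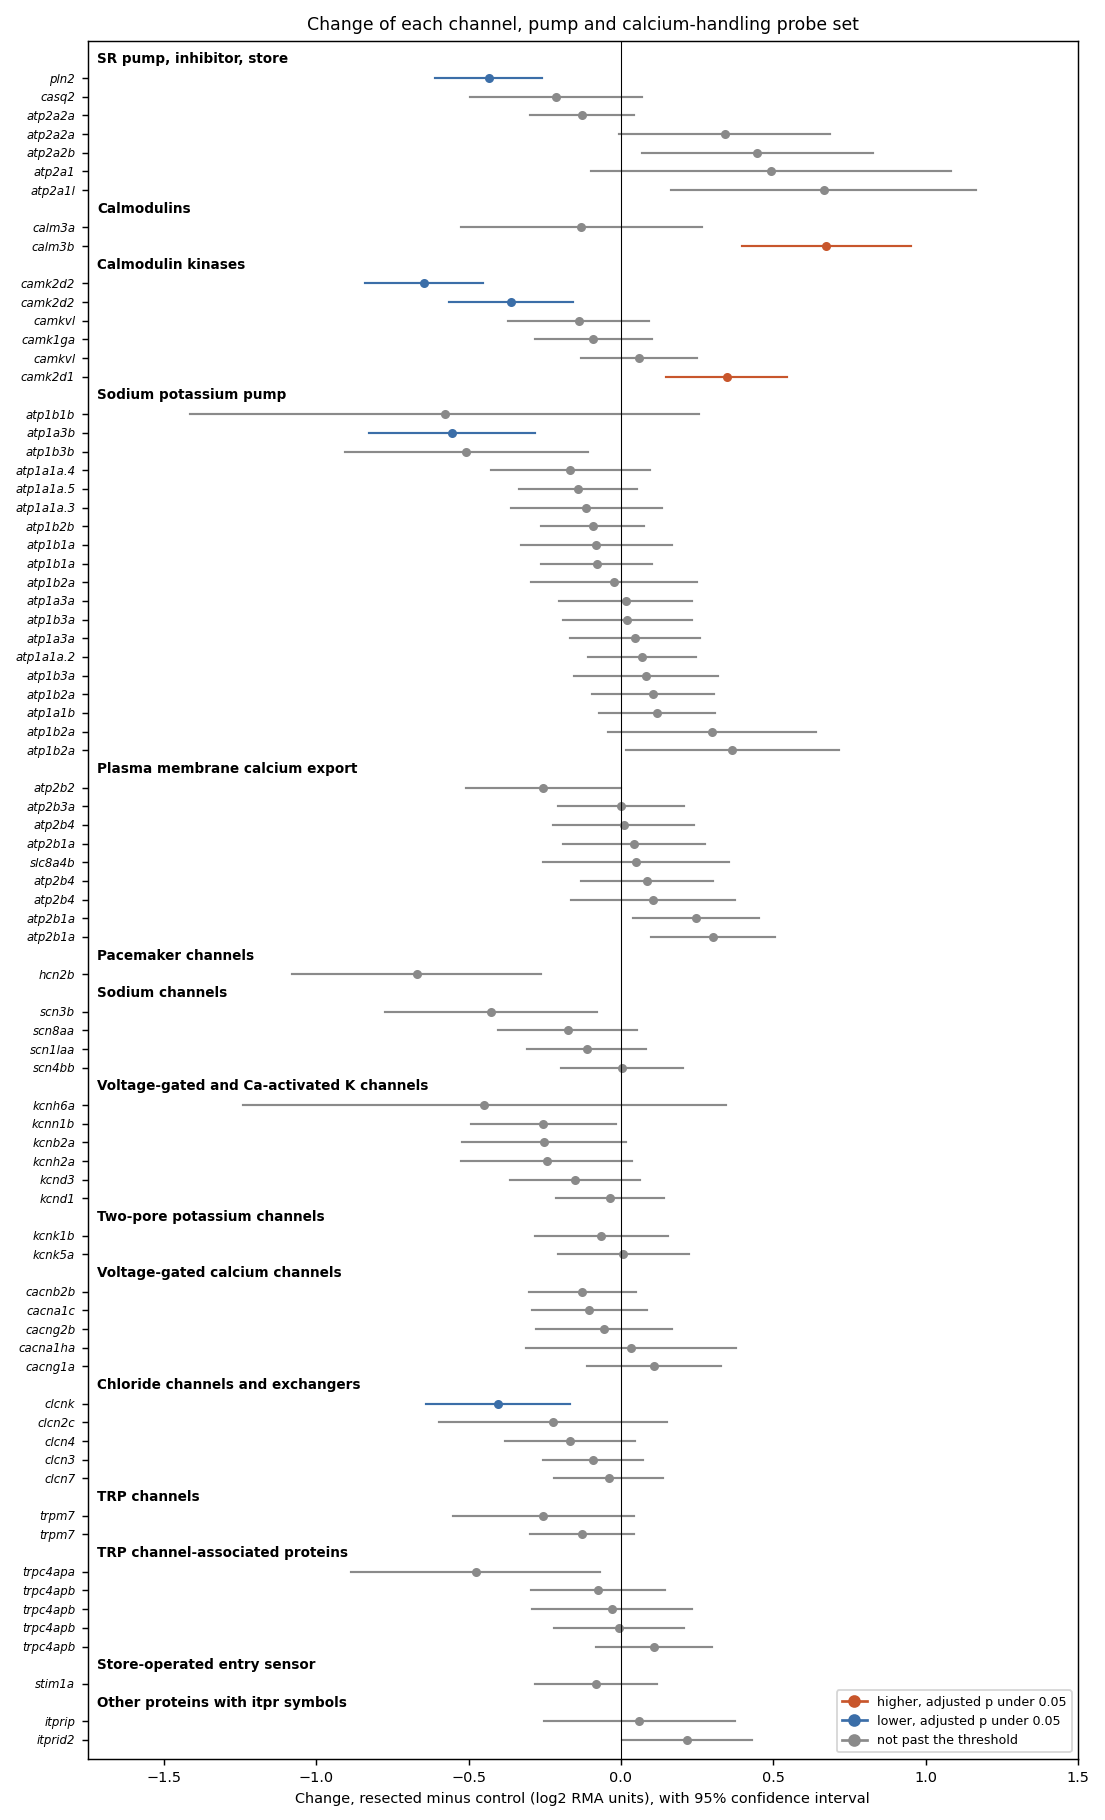
Change of each of the 76 probe sets, resected minus control in log2 RMA units, on the horizontal axis, grouped by the role of the encoded protein; points are the fitted changes and bars their 95% confidence intervals. Blue marks the 5 probe sets that were lower and orange the 2 that were higher at an adjusted p under 0.05; grey marks the other 69, most of which lie close to 0.

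The δ form of CaMKII, the main CaMKII of heart muscle in mammals, was measured for 2 zebrafish genes, camk2d2, which fell, and camk2d1, a dim probe set whose call depended on the arrays used. For camk2d2 the brighter probe set read 9.01, 9.10, 9.04 and 9.01 in control replicates 1 to 4 and 8.26, 8.49, 8.29 and 8.54 in resected replicates 1 to 4. Every resected array lay below every control array. The change was -0.65 ± 0.09 (SE), a 1.56-fold lower level (adjusted p = 0.00196, limma), and it was the smallest adjusted p of the 76 probe sets. A separate camk2d2 probe set read 5.32, 5.38, 5.34 and 5.27 in control and 4.81, 5.18, 4.98 and 4.90 in resected arrays. Again the groups did not overlap, and the change was -0.36 ± 0.09 (adjusted p = 0.0423, limma).

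The paralog camk2d1 was called higher, at 0.35 ± 0.09 (adjusted p = 0.045, limma). Its values were near the bottom of the scale: 2.56, 2.66, 2.49 and 2.35 in control and 2.76, 2.86, 2.96 and 2.86 in resected arrays, where the lowest value on any array was 2.01. RMA gives no detection call, so such a level does not show that the transcript was present. The call for the brighter camk2d2 probe set held whichever 1 array was left out (adjusted p = 0.00329 to 0.00943, limma). That for the dimmer one held without resected replicate 2 (0.0248) and ended without any other 1 array (0.0646 to 0.11). That for camk2d1 held without control replicate 2 (0.026) and ended without any other 1 array (0.0657 to 0.129).

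Of the other calmodulin kinase genes, camk1ga, a CaM kinase I gene, stood at -0.09 ± 0.09 (adjusted p = 0.565). The camkvl gene, named for a vesicle-associated CaM kinase-like protein, stood at -0.14 ± 0.10 and 0.06 ± 0.09 in its 2 probe sets.

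Calmodulin itself is encoded by several zebrafish genes, and the 2 with a probe set of their own differed in what the test called. The level of calm3b was 9.93, 10.46, 10.06 and 9.94 in control and 10.65, 10.94, 10.77 and 10.73 in resected arrays. No resected array was as low as the highest control array, control replicate 2. The increase was 0.67 ± 0.13, or 1.6-fold (adjusted p = 0.0108, limma), the largest increase of the 76 probe sets. It held whichever 1 array was left out (adjusted p = 0.00122 to 0.0413, limma), with the smallest of these values when control replicate 2 was left out. The calm3a probe set was at 9.79, 9.13, 10.08 and 9.87 in control and 9.47, 9.71, 9.71 and 9.46 in resected arrays, with a change of -0.13 ± 0.18 (95% interval -0.52 to 0.27, adjusted p = 0.7). Control replicate 2 was its lowest array, and without it the change was -0.32 ± 0.11 (adjusted p = 0.0986, limma). Without control replicate 3, its highest array, the change was -0.01 ± 0.17. The difference between the 2 genes was not tested. Another 5 probe sets carry the symbols of 6 calmodulin genes and of slc3a2b at once, so that the gene measured is not known, and they are not members. Their changes ran from -0.14 to 0.29, and limma called 0 of the 5 (1 at an unadjusted p under 0.05). Over all probe sets the shares were 6.85% and 23.1%.

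Among the SR genes a phospholamban gene, pln2, fell and the pumps were not called. No other member had a pln symbol. The pln2 probe set, named for phospholamban, the inhibitor of SERCA, read 7.81, 7.74, 7.71 and 7.58 in control and 7.28, 7.33, 7.21 and 7.29 in resected arrays. The 2 groups were apart by more than the range of the resected arrays, and the change was -0.43 ± 0.08, 1.35-fold lower (adjusted p = 0.0095, limma; 0.0121 to 0.0384 with each array left out in turn). Calsequestrin 2, casq2, the calcium-binding protein of the cardiac SR, was at -0.21 ± 0.13 (95% interval -0.50 to 0.07, adjusted p = 0.344). Control replicate 3 was its highest array at 10.20 and resected replicate 3 its lowest at 9.40, while the other 6 lay between 9.81 and 9.90.

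The cardiac pump gene atp2a2a read 13.22, 13.07, 13.19 and 13.08 in control and 13.06, 12.93, 13.01 and 13.06 in resected arrays in its brighter probe set. The groups did not overlap, but the change was small, -0.13 ± 0.08, and did not pass (95% interval -0.30 to 0.04, adjusted p = 0.349, limma). These are high values on a scale whose highest value on any array was 14.64. The dimmer atp2a2a probe set stood at 0.34 ± 0.16 (adjusted p = 0.224), opposite in sign. Its paralog atp2a2b was at 6.57, 6.13, 5.67 and 5.93 in control and 6.39, 6.55, 6.74 and 6.41 in resected arrays, a change of 0.45 ± 0.17 (adjusted p = 0.148, limma; 0.0282 without control replicate 1, its highest control array).

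The SERCA1 genes, which serve fast skeletal muscle, were higher in the mean without passing. For atp2a1l the control arrays read 5.12, 5.83, 4.85 and 5.64 and the resected arrays 5.95, 6.34, 5.58 and 6.23, a change of 0.67 ± 0.23 (adjusted p = 0.108, limma; 0.0376 without control replicate 2). For atp2a1 the change of 0.49 ± 0.27 (adjusted p = 0.298) rested on resected replicate 2, at 6.13 (without it 0.17 ± 0.11), while the other resected arrays read 4.68 to 4.96 and control arrays 4.52 to 4.78. Markers of fast skeletal muscle are set beside these genes. Of 14 measured markers outside the channel and pump genes 10 were higher and 0 lower. The mean of the 14 ran from 6.49 to 6.69 in control arrays and from 7.22 to 7.75 in resected arrays. The other 4 markers were not called and lay between -0.36 (ckmb) and 0.10. Without pvalb2, the marker of largest change, the mean was 6.49 to 6.70 in control and 7.14 to 7.64 in resected arrays. Resected replicate 2 had the highest mean of fast muscle markers and of the 2 slow muscle markers measured (myl10 and smyhc1). Neither slow marker was called (myl10 1.33 ± 0.40, adjusted p = 0.0762, and smyhc1 0.66 ± 0.24, adjusted p = 0.131, limma). The mean of these 2 ran from 4.59 to 5.04 in control arrays and from 5.09 to 6.71 in resected arrays. What part fast and slow muscle had in the SERCA1 values was not tested.

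**Figure D2:**
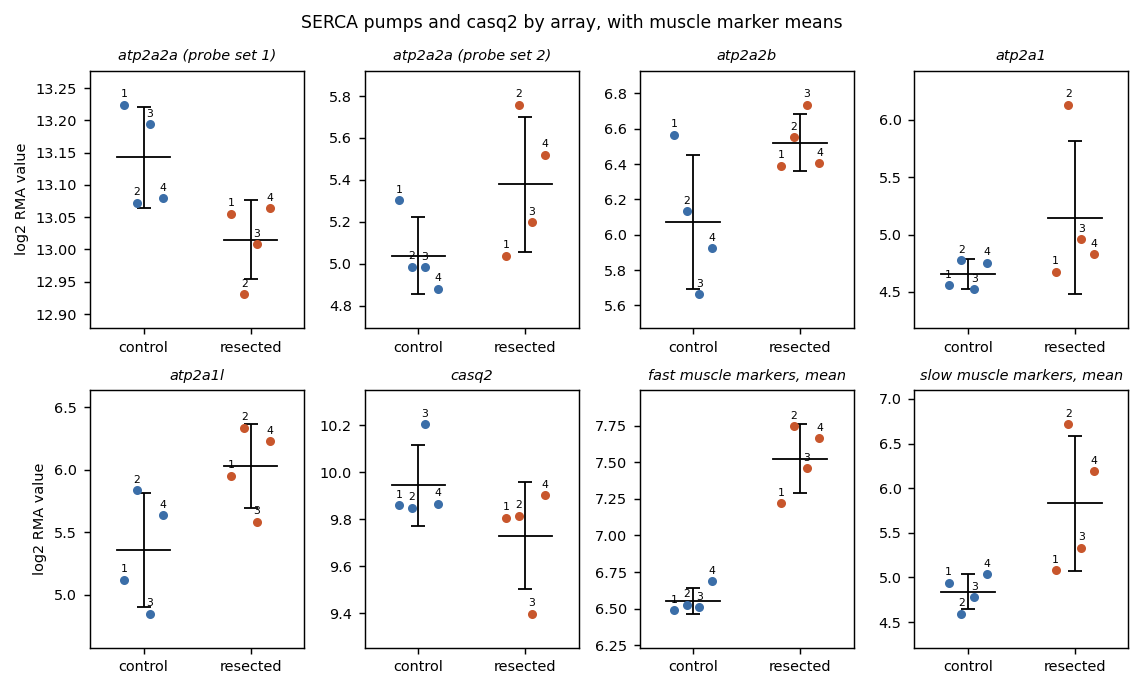
Level (log2 RMA units, vertical axis) of the SERCA pump genes and casq2 in each array, with the mean level of fast and slow skeletal muscle markers; numbers are replicates, lines means and bars 1 SD (n = 4 arrays per group). Resected replicate 2 is the highest array for atp2a1, atp2a1l, the dimmer atp2a2a probe set and both marker means.

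The sodium potassium pump, an enzyme of a catalytic α and a supporting β subunit, gave 19 probe sets of 13 genes. Of these probe sets 1 fell and 0 rose, where 2.57% of all probe sets fell and 4.28% rose. The gene that fell, atp1a3b, encodes an α3 subunit. Its values were 10.03, 10.05, 9.93 and 9.65 in control and 9.30, 9.20, 9.29 and 9.65 in resected arrays. Control replicate 4 and resected replicate 4 met at 9.65, and all other resected arrays lay below all control arrays. The change was -0.55 ± 0.12, 1.47-fold lower (adjusted p = 0.025, limma). The call was lost when control replicate 1, control replicate 3 or any of resected replicates 1 to 3 was left out (adjusted p = 0.0546 to 0.0825, limma). The other α genes with a member probe set, atp1a1a.2, atp1a1a.3, atp1a1a.4, atp1a1a.5, atp1a1b and atp1a3a, lay between -0.17 and 0.12. Their control means ran from 2.91 (atp1a1a.5) to 5.72 (atp1a1b), beside 9.91 for atp1a3b. Without a detection call, small changes at the dimmest of these levels do not show that a transcript was present and unchanged. The α genes atp1a1a.1 and atp1a2a had no member probe set.

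The β genes were not called. The bright β1 gene atp1b1a was at -0.08 ± 0.11 and -0.08 ± 0.08 in 2 probe sets, with 95% intervals of -0.33 to 0.17 and -0.26 to 0.10. The β3 gene atp1b3b was at -0.51 ± 0.18 (adjusted p = 0.123; control 8.99 to 9.65, resected 8.56 to 9.23), and its paralog atp1b3a at 0.02 ± 0.09 and 0.08 ± 0.11. Of the 4 probe sets of atp1b2a, a β2 gene, the 2 brightest were at 0.30 ± 0.15 and 0.37 ± 0.16 and the others at 0.10 ± 0.09 and -0.02 ± 0.12. The probe set at 0.37 had an adjusted p of 0.197 with limma, and of 0.0422 without resected replicate 4, its lowest resected array. The widest spread of all 76 probe sets was in atp1b1b, where control replicate 4 read 8.16 and the other 7 arrays 5.74 to 6.61. Its change of -0.58 ± 0.38 did not pass (adjusted p = 0.385). Without control replicate 4 it was -0.14 ± 0.20 (adjusted p = 0.755, limma), and without control replicate 2 -0.82 ± 0.37.

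Calcium export genes gave 9 probe sets, of which 0 were called, beside 6.85% of all probe sets. At an unadjusted p under 0.05 (limma) there were 2, where 23.1% of all probe sets reached it. The 2 belong to atp2b1a, a plasma membrane calcium pump. The brighter read 6.24, 6.05, 6.15 and 6.34 in control and 6.40, 6.46, 6.66 and 6.48 in resected arrays, without overlap (0.30 ± 0.09, adjusted p = 0.0782). The next read 6.04, 5.84, 5.72 and 6.02 and 6.11, 6.20, 6.22 and 6.08, also without overlap (0.25 ± 0.09, adjusted p = 0.144), while the third, at 2.96 in control arrays, was at 0.04 ± 0.10. The 3 probe sets of atp2b4, another such pump, lay between 0.01 and 0.10. Among the rest, atp2b2 was at -0.25 ± 0.12, atp2b3a at 0.00 ± 0.09 and the sodium-calcium exchanger gene slc8a4b at 0.05 ± 0.14.

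**Figure D3:**
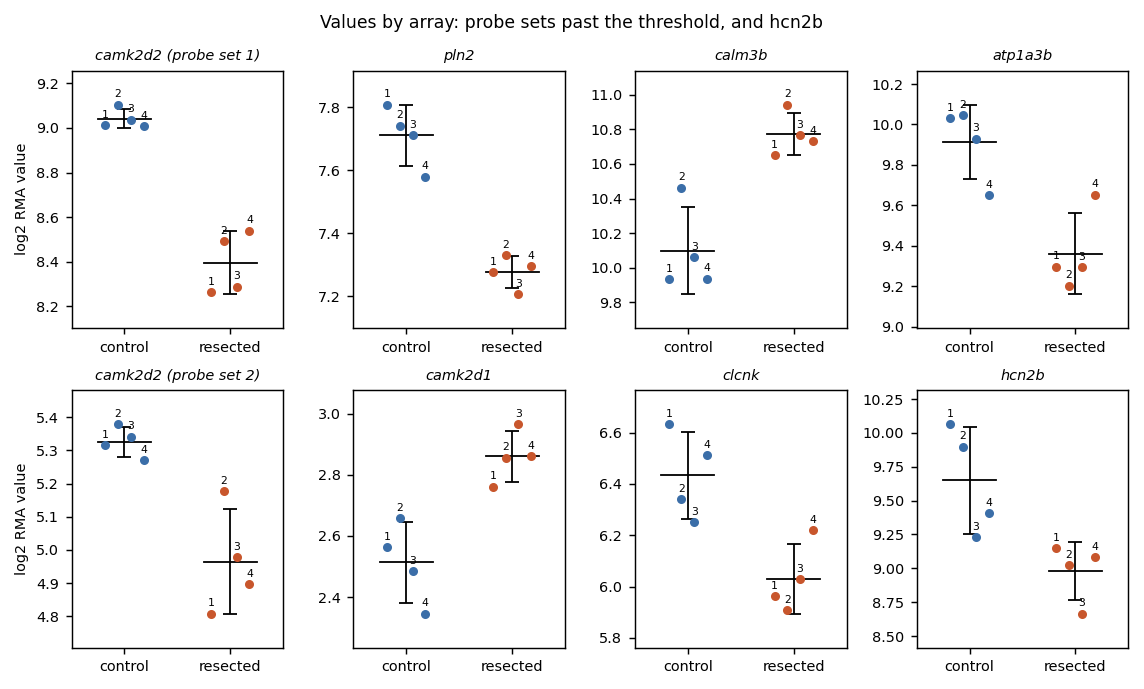
Level (log2 RMA units, vertical axis) in each array of the 7 probe sets past the threshold and of hcn2b; numbers are replicates, lines means and bars 1 SD (n = 4 arrays per group). The groups are apart in every panel but atp1a3b, where replicate 4 of both groups lies at 9.65.

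None of the 18 probe sets of voltage-gated sodium, potassium and calcium channels, two-pore channels and the pacemaker channel was called (3 at an unadjusted p under 0.05, limma). Over all probe sets 6.85% were called and 23.1% had an unadjusted p under 0.05 (limma), so that 0 of 18 is not far from that share. Several were dim, with control means of 2.85 for kcnk1b, 2.86 for cacng1a, 3.32 for kcnb2a, 3.59 for kcnd1, 4.01 for scn8aa and 4.25 for kcnk5a. The lower quartile of all values lay between 4.35 and 4.45 in control arrays. Without a detection call, a small change at such levels does not show that a transcript was present and unchanged. The largest decrease among all 76 probe sets was in hcn2b, a pacemaker channel gene, at -0.67 ± 0.18 or 1.59-fold lower. Its control arrays read 10.06, 9.90, 9.23 and 9.41 and its resected arrays 9.15, 9.02, 8.66 and 9.08. Resected arrays lay below control arrays throughout, and the controls spread from 9.23 to 10.06; the adjusted p was 0.0556 (limma). Without control replicate 3, the lowest control array, it was 0.0264.

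Sodium channel genes were represented by 2 pore and 2 accessory subunits. The accessory β3 gene scn3b was at -0.43 ± 0.16 (adjusted p = 0.134, limma), with 9.85, 9.61, 9.46 and 9.46 in control and 9.18, 9.30, 8.71 and 9.48 in resected arrays. Resected replicate 4 overlapped the controls, and resected replicate 3 was the lowest array. The β4 gene scn4bb was at 0.00 ± 0.09, and the pore genes scn8aa and scn1laa at -0.18 ± 0.10 and -0.11 ± 0.09.

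All 6 voltage-gated and calcium-activated potassium channel genes had a change below 0, from -0.45 to -0.04, and 0 of 6 were called (1 at an unadjusted p under 0.05, limma). Over all 15502 probe sets 60.4% had a change below 0 and 39.6% one above 0. Of the same probe sets 6.85% were called and 23.1% had an unadjusted p under 0.05 (limma). The gene kcnh6a, which encodes the ERG channel that repolarises the zebrafish ventricle, had the widest spread of them. It read 9.40, 8.99, 7.62 and 8.85 in control and 8.58, 8.25, 7.56 and 8.68 in resected arrays. Replicate 3 was the lowest array of both groups, and the change of -0.45 ± 0.36 had a 95% interval of -1.24 to 0.34 (adjusted p = 0.483). Leaving out replicate 3 of the controls gave -0.82 ± 0.25 (adjusted p = 0.101, limma), and leaving out that of the resected arrays -0.21 ± 0.35 (adjusted p = 0.769, limma). Without control replicate 1, its highest array, the change was -0.22 ± 0.35. The related kcnh2a was at -0.24 ± 0.13 and the small-conductance channel gene kcnn1b at -0.26 ± 0.11 (adjusted p = 0.187). The Kv2 gene kcnb2a was at -0.25 ± 0.12, and the transient outward channel genes kcnd3 and kcnd1 at -0.15 ± 0.10 and -0.04 ± 0.08. The two-pore channel genes kcnk1b and kcnk5a were at -0.06 ± 0.10 and 0.01 ± 0.10.

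No calcium channel gene was called (0 of 5 at an unadjusted p under 0.05, limma), where the shares of all probe sets were 6.85% and 23.1%. The L-type channel gene cacna1c, through which calcium enters ventricular muscle, read 6.16, 6.04, 6.09 and 6.28 in control and 6.13, 5.96, 5.97 and 6.10 in resected arrays. The groups overlapped, and the change was -0.10 ± 0.08 (95% interval -0.29 to 0.08, adjusted p = 0.493, limma). Its partner subunit gene cacnb2b was at -0.13 ± 0.08 (-0.30 to 0.05). The T-type channel gene cacna1ha was at 0.03 ± 0.16: the resected arrays lay within 4.73 to 4.81, and the controls between 4.35 and 5.23. The γ subunit genes cacng1a and cacng2b were at 0.11 ± 0.10 and -0.05 ± 0.10.

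**Figure D4:**
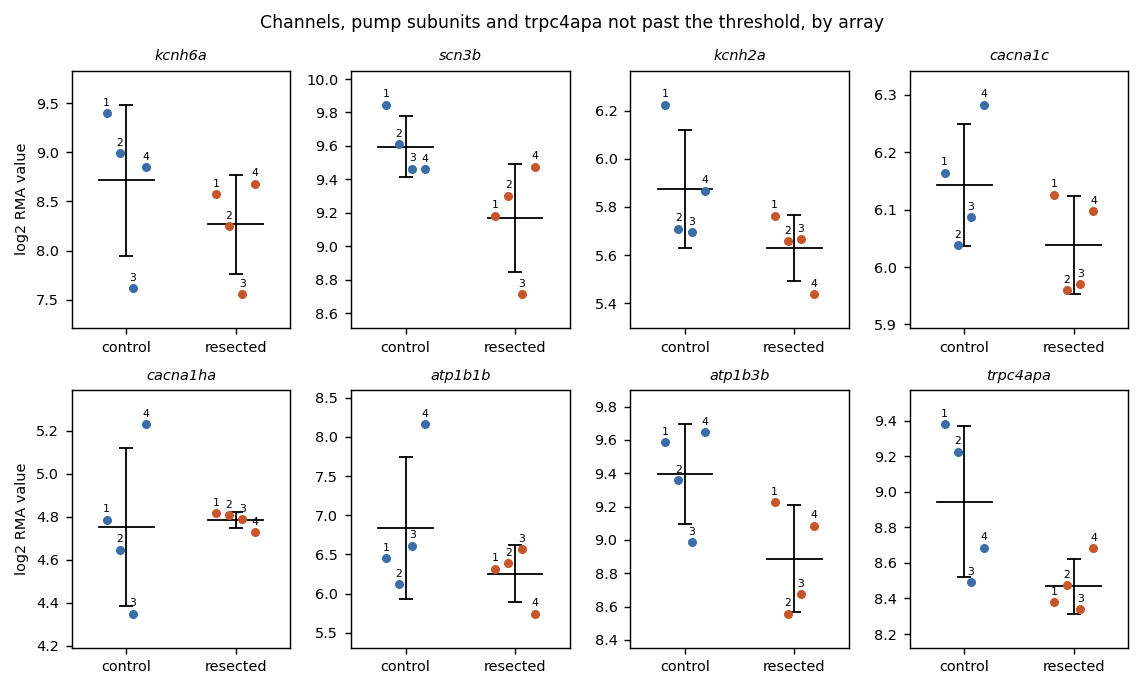
Level (log2 RMA units, vertical axis) in each array of 8 probe sets that did not pass the threshold, chosen after their values were seen; numbers are replicates, lines means and bars 1 SD (n = 4 arrays per group). Replicate 3 is the lowest array of both groups for kcnh6a, and control replicate 4 stands above the other 7 arrays for atp1b1b.

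Of 5 chloride channel and exchanger genes, clcnk, named for kidney-type chloride channels, was called lower, where 2.57% of all probe sets were. It read 6.63, 6.34, 6.25 and 6.51 in control and 5.96, 5.91, 6.03 and 6.22 in resected arrays, with control replicate 3 and resected replicate 4 the nearest pair. The change was -0.40 ± 0.11 (adjusted p = 0.0498, limma). The call was lost when control replicate 1, control replicate 4 or any of resected replicates 1 to 3 was left out (adjusted p = 0.0984 to 0.142). The lysosomal exchanger gene clcn7 was at -0.04 ± 0.08, clcn3 and clcn4 at -0.09 ± 0.07 and -0.17 ± 0.10, and clcn2c at -0.22 ± 0.17.

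The remaining members were not called. The cation channel and kinase gene trpm7 was at -0.25 ± 0.13 and -0.13 ± 0.08 in 2 probe sets, and stim1a, the sensor that opens calcium entry when the store is empty, at -0.08 ± 0.09 (95% interval -0.28 to 0.12). Of the channel-binding proteins, trpc4apa was at -0.48 ± 0.18 (adjusted p = 0.154, limma), with control arrays from 8.49 to 9.38 and resected arrays from 8.34 to 8.68. The 4 probe sets of trpc4apb lay between -0.08 and 0.11, and itprid2 and itprip stood at 0.22 ± 0.10 and 0.06 ± 0.14. Without these 7 probe sets, 2 of 69 (2.90%) were higher and 5 (7.25%) lower, beside 4.28% and 2.57% of all probe sets.

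**Figure D5:**
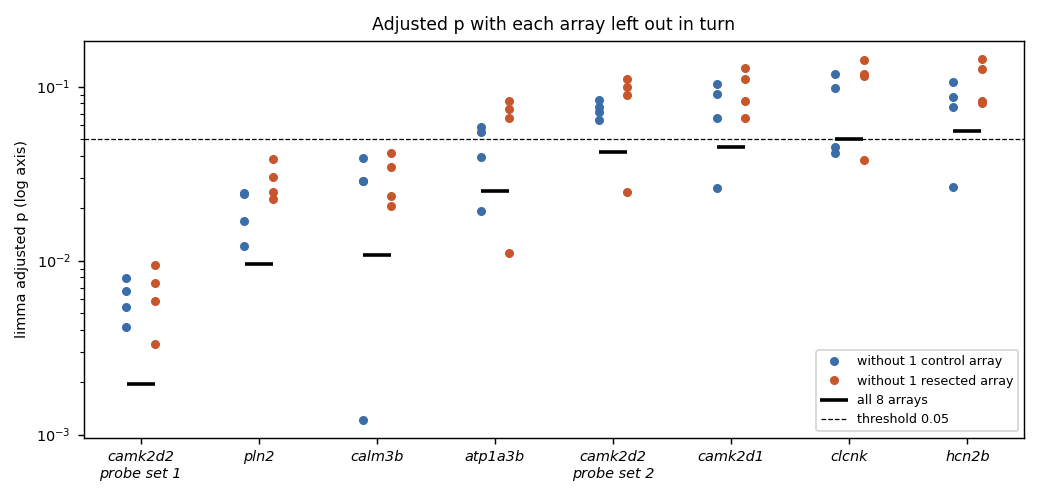
Adjusted p of limma (log axis) for the 7 probe sets past the threshold and hcn2b, with all 8 arrays (black bars) and with each control (blue) or resected (orange) array left out; the dashed line is the threshold of 0.05. The brighter camk2d2 probe set (1), pln2 and calm3b stay below the line with each array left out.

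Genes that act with the channels and pumps but fall outside the name pattern were taken from a list of 116, of which 55 were measured. Of these 3 rose and 0 fell (10 and 3 at an unadjusted p under 0.05, limma), where 5.05% of 8793 genes rose, 8.05% changed in either direction and 25.4% had an unadjusted p under 0.05; each gene is given by its brightest probe set. The largest increases of the 3 were in gja1b and rcn3. The gap junction gene gja1b, a connexin 43 gene, read 6.39, 6.45, 5.79 and 6.14 in control and 6.89, 7.38, 7.32 and 6.85 in resected arrays. The groups did not overlap, and the increase of 0.92 ± 0.17, 1.89-fold, had an adjusted p of 0.0107 (limma; 0.00719 to 0.0398 with each array left out in turn, and 0.0892 without variance moderation). The reticulocalbin gene rcn3, a calcium-binding protein of the endoplasmic reticulum that is part of the secretory pathway, rose by 0.91 ± 0.10 with control arrays at 5.14 ± 0.11 and resected arrays at 6.05 ± 0.15 (mean ± SD of 4 arrays; adjusted p = 0.000448, limma). The inhibitory G protein gene gnai2a rose by 0.47 ± 0.12 (adjusted p = 0.0428, limma), a call that held without control replicate 2 (0.00671) and ended without any other 1 array (0.0557 to 0.128).

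Of the 10 measured genes of the SR and of the junction where it meets the cell membrane, 0 were called (1 at an unadjusted p under 0.05, limma). Over 8793 genes these shares were 8.05% and 25.4%. The FK506-binding protein fkbp1b, which binds the cardiac release channel, was at -0.21 ± 0.11 (95% interval -0.46 to 0.04; adjusted p = 0.29, and 0.0477 without control replicate 2). The calcium entry channel genes orai1a and orai1b were at -0.06 ± 0.10 and 0.23 ± 0.08, and the mitochondrial uniporter gene mcu at 0.08 ± 0.10. None of the 7 calcineurin and NFAT genes was called (1 at an unadjusted p under 0.05, limma). That gene, rcan3, was at -0.96 ± 0.33 or 1.95-fold lower (adjusted p = 0.108, limma), and the groups overlapped. Without resected replicate 4, its highest resected array, the change was -1.28 ± 0.25 (adjusted p = 0.0175, limma). The gene rcan3 was chosen after its values were seen. Without control replicate 2, 6 genes of the list rose and 3 fell. The genes so gained were calr3a (adjusted p = 0.0169), calr3b (0.0492) and canx (0.0483), which rose, and slc4a2a (0.0149), gja3 (0.0287) and fkbp1b, which fell. Of these only fkbp1b was named by rule; the others were chosen after their values were seen. In that fit 10.4% of all probe sets were called.

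In bulk tissue fewer cells of a type and less RNA per cell cannot be told apart, so the markers of the cells present are set beside these results. Of 7 heart muscle markers 1 rose (myh7) and 0 fell, and the other 6 lay between -0.17 and -0.01. In control arrays those 6 had means of 12.21 to 14.48, on a scale whose highest value on any array was 14.64. The mean of myh7 there was 9.94. The mean of the 7 ran from 12.88 to 12.98 in control arrays and from 12.89 to 13.07 in resected arrays, and that of the 6 without myh7 was 13.37 to 13.51 in control and 13.28 to 13.42 in resected arrays. Markers of other cells moved further: the mean of 6 fibroblast and epicardial genes ran from 7.40 to 7.80 in control arrays and from 9.70 to 9.89 in resected arrays, and that of 7 erythrocyte genes from 7.90 to 8.12 in control arrays and from 9.16 to 10.12 in resected arrays. Of the 6 fibroblast and epicardial genes 5 rose, and tbx18 was not called (0.21 ± 0.09, adjusted p = 0.213, limma). Without postnb the mean of the other 5 was 7.49 to 7.84 in control and 9.45 to 9.65 in resected arrays. For 9 leukocyte genes the mean ran from 7.61 to 8.61 in control arrays and from 8.42 to 8.92 in resected arrays, with control replicate 2 at the control maximum. Of these 9 genes 2 rose (csf1ra and spi1b) and 0 fell, and the other 7 lay between -0.06 (mpx) and 0.86 (lyz). Of 3 smooth muscle markers tagln (1.88 ± 0.13) and mylka rose, and their mean ran from 8.39 to 8.69 in control arrays and from 9.21 to 9.48 in resected arrays. Without tagln the mean of the other 2 was 8.06 to 8.44 in control and 8.23 to 8.54 in resected arrays. Of 4 genes listed as thrombocyte markers the fibronectin gene fn1b (2.10 ± 0.14) rose. Its paralog fn1a is counted here with the fibroblast and epicardial genes, so fn1b may not be particular to thrombocytes. The mean of the 4 ran from 4.87 to 5.36 in control arrays and from 5.82 to 5.92 in resected arrays. Without fn1b that of the other 3 was 3.76 to 4.30 in control and 4.23 to 4.32 in resected arrays. Of 5 endothelial markers cldn5a rose, and their mean ran from 6.80 to 6.96 in control arrays and from 6.69 to 6.91 in resected arrays. The other 4 were not called and lay between -0.41 (kdrl) and -0.07. Without cldn5a their mean was 7.65 to 7.83 in control and 7.38 to 7.67 in resected arrays. Of 10 neuronal markers syt1a fell (-1.717 ± 0.147) and the other 9 lay between -0.19 and 0.30; 0 of 5 glial markers were called (0 at an unadjusted p under 0.05). The mean of the 10 neuronal markers ran from 5.02 to 5.21 in control arrays and from 4.79 to 4.98 in resected arrays, and that of the 9 without syt1a was 4.70 to 4.87 in control and 4.61 to 4.80 in resected arrays, with overlap. Each of these means without 1 marker leaves out the marker of largest change, a choice made after seeing the data. Control probes at the 3' end minus those at the 5' end are often read as a sign of RNA length. For the actin gene acta1 this difference was -2.30 to -1.98 in control and -1.74 to -1.46 in resected arrays. For GAPDH it was 0.77 to 1.07 and 0.80 to 1.05, with overlap. The acta1 values were negative in every array, and whether RNA length differed between the groups was not tested. What part these differences had in the channel and pump values was not tested.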

How the data were processed

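Gene expression was measured on 8 arrays, 4 control and 4 resected. The deposited values are log2 expression. Per the submitters' processing notes the authors used affy and RMA, with no versions; RMA corrects background, quantile-normalizes and summarises probes, and its log2 differences can understate true ones. Of 15617 probe sets, 115 manufacturer's controls were left out, which left 15502. In the platform annotation 10795 of these had 1 symbol, 135 several and 4572 none. All 76 member symbols were the same in the gene table of the GRCz12tu assembly. Coordinates are not printed, since the sources used here do not name a build for the array. Probes can bind close paralogs, so copies of 1 family are uncertain.

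Resected minus control was fitted with limma 3.58.1 in R 4.3.3 (lmFit, eBayes), two-sided, without a replicate term, with Benjamini-Hochberg adjustment over all probe sets and a threshold of 0.05. p-values measure the spread between pools. The fit was tested on simulated data, with fewer changed probe sets than were called here. It recovered 2.54% of changes of 0.25 log2 units, 40.4% of those of 0.5 and 86.1% of those of 1. The genes to be named were all called members, the 2 of smallest p in each role group with none called, and a set list of genes of the cardiac action potential, the calcium cycle and their skeletal counterparts; other members complete a group. Of the 78 names on that set list, 23 had a member probe set. Those without one include scn5lab, kcnq1.1 and hcn4. The members and gene lists were chosen with earlier results of these data known. Alternatives were a replicate block, other variance priors, array weights, other scalings, filters on dim probe sets, averaging the probe sets of each gene and leaving out each array.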

Additional observations from a re-analysis of the deposited data

Results flagged for a closer look

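In 5 of the 122 groups of 4 arrays examined for the genes named, 1 array lay far from the other 3 for the range of its group, where chance gives about 1 in 20. None of the 5 probe sets was called. For casq2, control replicate 3 read 10.20, beside 9.85 to 9.87 in the other controls. The potassium channel gene kcnb2a read 3.004 in control replicate 3, beside 3.41 to 3.47. The α3 pump gene atp1a3a, in its brighter probe set, read 4.36 in control replicate 3, beside 4.63 to 4.66. In its dimmest probe set the β2 gene atp1b2a read 5.35 in control replicate 4, beside 5.63 to 5.67. The β3 gene atp1b3a read 4.82 in resected replicate 2, beside 5.07 to 5.10 in the other resected arrays.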

How the results depend on the processing

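In the run that averaged the probe sets of each gene, member probe sets were not scored. Of the 7 calls, those of pln2 and the brighter camk2d2 probe set held in every other alternative run. That of calm3b held in all of these but the fit without variance moderation (adjusted p = 0.0761, limma). Beside 2 higher and 5 lower members, that fit gave 0 and 2, in 2 groups of related genes rather than 5, and 1 higher gene of the excitation-contraction list rather than 3, with gja1b (0.0892) and gnai2a (0.129) no longer called. Without moderation 1.93% of all probe sets were called, beside 6.85% in the main fit. Higher members numbered 1 with median centring and with either filter on dim probe sets, which removes camk2d1. Median centring called 6.78% of all probe sets, and the filters 8.86% and 11.3% of those kept. Leaving out each array gave 1 to 3 higher and 2 to 4 lower members in 3 to 5 groups, and 2 to 6 higher and 0 to 3 lower genes of the list. The share of all probe sets called ran from 3.52% to 10.4% in those fits.

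Replicate numbers were not taken as pairs: same-numbered arrays deviated from their group means with correlations of 0.12, 0.14, -0.01 and -0.16, and control replicate 4 correlated best with resected replicate 3 (0.30). With the replicate block, 2 members were higher and 4 lower, and 6.62% of all probe sets were called. In that fit 5 genes of the list were higher and 1 lower. Under it hcn2b (adjusted p = 0.018), atp1b3b (0.0344) and atp2a1l (0.0077) passed, and clcnk (0.0618), camk2d1 (0.0858), the dimmer camk2d2 probe set (0.0605) and atp1a3b (0.0663) did not.

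Some values near 0, not called, turned sign: with array weights atp1b2a (0.034) and trpc4apb (0.012), and with further quantile normalization trpc4apb (0.024). With 1 array left out, the ranges that crossed 0 were -0.17 to 0.0089 for atp1b1a, -0.096 to 0.087 for atp1b2a, -0.023 to 0.086 for atp1b3a, -0.044 to 0.064 and -0.026 to 0.085 for atp1a3a, -0.0081 to 0.13 for atp2b1a, -0.057 to 0.070 for atp2b4, -0.057 to 0.066 for kcnk5a, -0.099 to 0.064 and -0.050 to 0.055 for trpc4apb, -0.036 to 0.18 for itprip and -0.13 to 0.0062 for orai1a. The causes were not tested. RMA values carry no detection call, which limits dim probe sets such as that of camk2d1.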

Other observations

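The 76 probe sets were not spread evenly over the control arrays. Control replicates 1 and 4 were each the highest control for 28 of them, and control replicate 3 was the lowest control for 31. In resected arrays, replicate 3 was highest for 24 and replicate 2 lowest for 26. Medians over the whole array were 5.80, 5.78, 5.78 and 5.81 in control replicates 1 to 4. In resected replicates 1 to 4 they were 5.78, 5.78, 5.80 and 5.82. The same counts were not made over all probe sets, so the unevenness cannot be called particular to the members. The median spread within groups, as a pooled SD, was 0.14 log2 units for the members and 0.15 for all probe sets.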
